A study of Homo sapiens with 4 samples.

Results

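The lysosome and autophagy genes described here were a list of 40 genes given by name, taken as the rows of the deposited table that carry their symbols. All 40 had a row among the 43622 genes of the table. Values are TPM (transcripts per 1000000), in which each gene is divided by its length and each library sums to 1000000. A filter at 0.1 TPM on the average of the 12 libraries left 38 of the 40 genes. RNA-seq was performed on PC3, an established human prostate adenocarcinoma line, in 4 groups of 3 libraries: DMSO-treated PC3 (Ctrl), PC3 given 1 µM of the inhibitor MLN4924 (MLN), DMSO-treated PC3-shp14ARF (shARF) and PC3-shp14ARF given the inhibitor at the same dose (Both), all after 3 days. MLN4924 blocks NEDDylation and through it the cullin-RING ubiquitin ligases. The shRNA against p14ARF was brought in by a retrovirus and the cells were selected with hygromycin B. No control shRNA was named for the Ctrl and MLN cells, so depletion of p14ARF and the presence of a vector cannot be told apart. Whether the shRNA cells were a clone, and whether the 3 libraries of a group came from separate cultures, is not stated in the sources used here. The p-values therefore measure the spread between these libraries, which may be technical.

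Lysosomes are acidic organelles that break down proteins, lipids and glycans brought in by endocytosis or by autophagy. Their lumen holds hydrolases such as cathepsins and glycosidases, their membrane is lined by heavily glycosylated LAMP proteins, and the V-ATPase pumps protons into them. Many of these genes carry the CLEAR element, an E-box sequence bound by the MiT/TFE transcription factors TFEB, TFE3 and MITF, which the growth kinase mTORC1 holds in the cytoplasm when nutrients are plentiful. In autophagy a double membrane forms under the control of ULK1 and WIPI proteins, is decorated with LC3 and GABARAP proteins, and fuses with the lysosome. Cullin-RING ligases are known to degrade DEPTOR, an inhibitor of mTOR.

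Fold changes were computed on log2(TPM + 0.1) with limma fits to 19932 genes, and for genes of low TPM they come out too small on this scale. Calls ("rose", "fell", "higher", "lower") required an adjusted p below 0.05, errors of fold changes are standard errors, and n was 3 libraries in each group throughout. Signed values given without a unit are on the log2 scale. CDKN2A, which encodes p14ARF and is targeted by the shRNA, had 190.1, 183 and 177 TPM in Ctrl and 100.4, 133 and 119 TPM in MLN. It had 58.2, 58.6 and 60.9 TPM in shARF and 47.2, 41.2 and 54 TPM in Both. It was lower in the shRNA cells without drug (log2 fold change -1.63 ± 0.035, 3.09-fold lower, adjusted p = 2.24e-05) and with it (log2 fold change -1.30 ± 0.14, 2.47-fold lower, adjusted p = 0.00188). Its level fell as well from Ctrl to MLN (log2 fold change -0.65 ± 0.11, 1.57-fold lower, adjusted p = 0.00235). A gene level does not separate p14ARF from the p16INK4a transcript of the same gene. The epithelial markers KRT8, KRT18, EPCAM and CDH1 summed to between 371 and 414 TPM in Ctrl, 271 and 303 in MLN, 634 and 727 in shARF, and 230 and 244 in Both. KRT18 was the largest part of the sum, with a mean of 235 TPM in Ctrl and 156 TPM in MLN. The mean of KRT8 was 90.6 TPM in Ctrl and 93.1 TPM in MLN, with overlap. EPCAM had 48.6 and 28.4 TPM, and CDH1 had 16.3 and 12.7 TPM. KLK3, the gene of prostate-specific antigen, was listed at 0 in the 12 libraries. Of the markers of other cell types, the leukocyte gene PTPRC reached at most 0.322 TPM, and the melanocyte genes PMEL, MLANA and TYR summed to between 0.623 and 2.47 TPM. CD68, which is also a lysosomal membrane gene, was at 73.7 to 606 TPM. The fibroblast genes COL1A1, COL1A2 and DCN summed to 12.8 to 15.4 TPM in Ctrl, 18.5 to 21.2 TPM in MLN, 52.9 to 63.8 TPM in shARF and 9.95 to 11 TPM in Both. Among them COL1A2 had a mean of 6.73 TPM in Ctrl and 54.5 TPM in shARF, COL1A1 one of 7.27 TPM in Ctrl and 4.04 TPM in shARF, and DCN was near 0. Of the endothelial genes, PECAM1 had a mean of 11.7 TPM in Ctrl, 0.579 TPM in MLN, 1.91 TPM in shARF and 0.173 TPM in Both, and VWF was near 0. The part of these markers in the results was not tested. Mitochondrially encoded genes took 6.04 to 13.2% of the TPM of a library. TPM values keep no depth, so how many reads each rests on is unknown, and in bulk RNA fewer cells and less RNA per cell cannot be told apart.

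Promoter sequences are shown first because the E-box of the CLEAR element is the feature that members of this pathway are known to share. RefSeq windows from 250 bases before to 50 after each start on GRCh38.p14 were at hand for 29 of the 40 members. The E-box CACGTG, which reads the same on both strands, stood in 7.26% of all 35116 windows and in 9 of the 44 windows of members. By gene, 8.77% of all 27305 genes and 8 of the 29 members held it. The longer core TCACGTGA, which holds a CACGTG within it and also reads the same on both strands, stood in 0.98% of all windows and 1.18% of all genes, and in 5 of the 29 members: LAMP1, MCOLN1, CTSA, CLN3 and ATP6V0D1. LAMP1 had 6 copies of CACGTG between 192 bases before its start and the start itself, and MCOLN1 had 2, both within the longer core. The stretches below are in the direction of the gene, 5′ to 3′, with each CACGTG in capitals, and lie at chr13:113297033-113297257 (plus strand), chr19:7522569-7522629 (plus), chr20:45891279-45891329 (plus), chr16:28492056-28492118 (minus), chr16:67481197-67481230 (minus), chr6:31862928-31862961 (minus), chr11:1763955-1763988 (minus) and chr12:55729170-55729203 (minus) of GRCh38.
LAMP1: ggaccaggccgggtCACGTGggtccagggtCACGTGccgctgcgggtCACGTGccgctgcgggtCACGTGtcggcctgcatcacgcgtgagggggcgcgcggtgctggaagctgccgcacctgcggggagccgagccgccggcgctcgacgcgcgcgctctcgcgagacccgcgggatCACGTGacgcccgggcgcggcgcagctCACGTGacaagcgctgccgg
MCOLN1: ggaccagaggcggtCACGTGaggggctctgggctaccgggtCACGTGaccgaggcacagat
CTSA: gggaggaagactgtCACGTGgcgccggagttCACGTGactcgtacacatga
CLN3: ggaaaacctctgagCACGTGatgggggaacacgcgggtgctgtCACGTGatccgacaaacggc
ATP6V0D1: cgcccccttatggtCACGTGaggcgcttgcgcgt
NEU1: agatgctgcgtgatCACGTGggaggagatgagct
CTSD: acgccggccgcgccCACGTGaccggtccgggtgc
CD63: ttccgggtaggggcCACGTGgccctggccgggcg
A match is a description of the letters and not a binding site. The 8 genes whose window held the E-box did not move as one: from Ctrl to MLN, MCOLN1 and NEU1 rose, LAMP1 and CD63 fell, and CTSA, CLN3, ATP6V0D1 and CTSD were not called. GLA, the member with the largest rise, had neither motif in its window.

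By level, the most abundant members were the sphingolipid activator precursor PSAP (804 ± 32.5 TPM in Ctrl, mean ± SD), the tetraspanin CD63 (776 ± 29.8 TPM) and the progranulin gene GRN (717 ± 68.1 TPM), whose Ctrl libraries overlapped one another. These 3 genes were followed by the cathepsin genes CTSA (431 ± 28 TPM) and CTSD (397 ± 31.7 TPM), which also overlapped. The least abundant of the members tested were CTSH (5.37 ± 0.303 TPM), CTSS (3.65 ± 0.126 TPM) and TFEB (2.06 ± 0.0825 TPM), in that order and without overlap. HEXA, the alpha subunit of hexosaminidase, was listed at 0 to 0.0241 TPM and ATP6V0A1, a subunit of the V-ATPase membrane sector, at 0.0267 to 0.116 TPM. Both fell below the filter and had no test. An exact 0 in such a table can be a failed estimate. In the GENCODE annotation a protein-coding gene on the same strand shares 617 exonic bases with HEXA, 3.9% of those of HEXA. A lncRNA on the same strand shares 125 with ATP6V0A1, 1% of those of ATP6V0A1. The part of these overlaps in the low values was not tested.

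MLN4924 moved most of these genes, in both directions, in cells in which most genes tested were called. In PC3 cells 13 of the 38 members tested rose and 15 fell, where 32.2% and 29.4% of all genes tested rose and fell. With a 2-fold change required as well, 3 rose and 3 fell, against 15.6% and 12.4% of all genes. In PC3-shp14ARF cells 13 members rose and 18 fell (28.3% and 32.8% of all genes), and at 2-fold 6 rose and 4 fell (13% and 13.4% of all genes). The median log2 fold change of the members was -0.041 in PC3 and -0.18 in PC3-shp14ARF cells, beside 0.052 and -0.038 over all genes tested. The share of members that rose, 34.2% in both, stood near the background, and the share that fell was 39.5% and 47.4%. All 38 members tested averaged at least 1 TPM, while the genes tested reached down to 0.1 TPM. The shares of all genes, here and in the other comparisons, are therefore not matched for level. With the filter at a mean of 1 TPM, 10813 genes were called in PC3 and 10851 in PC3-shp14ARF cells. In any 1 library 14055 to 14798 genes reached 1 TPM. All called members had groups that did not overlap. Of all genes tested, 34.6% were higher and 32.4% lower without overlap in PC3, and 30.6% and 36.5% in PC3-shp14ARF cells. The 2 comparisons share no library. There were 12 members that rose in both cell populations, 13 that fell in both, and 0 that were called in opposite directions, while of all genes tested 22% rose in both, 22.8% fell in both and 0.898% and 1.38% were called in opposite directions. With median-of-ratios scaling of the TPM, 13 members rose and 17 fell in PC3 and 15 rose and 15 fell in PC3-shp14ARF cells.

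**Figure D1:**
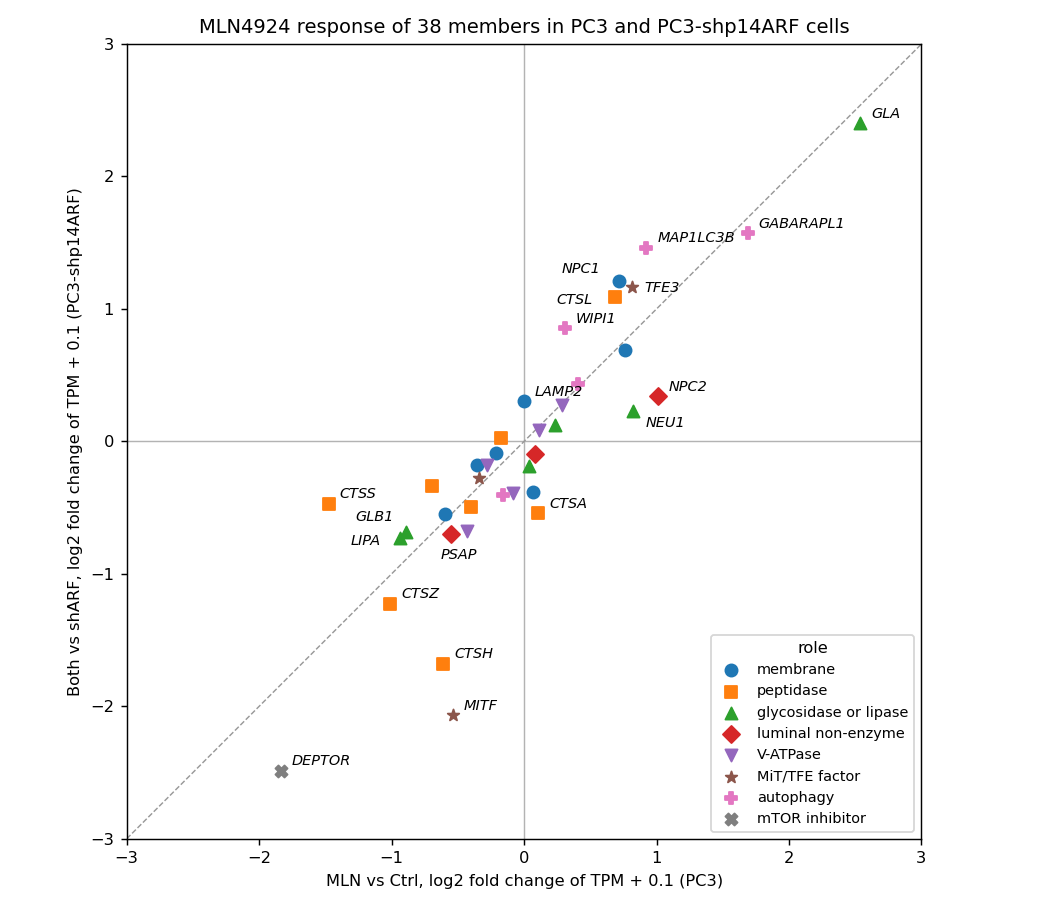
Each point is 1 of 38 members, with its log2 fold change of TPM + 0.1 from Ctrl to MLN on the x axis and from shARF to Both on the y axis, coloured and shaped by role, with the line of equal change dashed. GLA lies at the upper right near the line, and MITF and CTSH lie well below it.

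Of the MiT/TFE factors, which drive the transcription of lysosomal genes, TFE3 rose under the drug while MITF fell and TFEB was not called. TFEB (chromosome 6, 41683978 to 41736259, minus strand of GRCh38) had 2.16, 2.01 and 2.02 TPM in Ctrl and 1.62, 1.49 and 1.71 TPM in MLN. It had 0.725, 0.468 and 0.731 TPM in shARF and 0.424, 0.457 and 0.646 TPM in Both. Its Ctrl and MLN libraries did not overlap, yet the difference narrowly missed the call (log2 fold change -0.34, 95% interval -0.65 to -0.037, adjusted p = 0.0542), and 4 of 14 alternative settings called it. The shRNA lowered TFEB without drug (log2 fold change -1.57 ± 0.19, 2.96-fold lower, adjusted p = 0.00254) and with it (log2 fold change -1.50 ± 0.20, 2.83-fold lower, adjusted p = 0.0035). TFE3 (chromosome X, 49028726 to 49043410, minus strand) was by far the most abundant of the 3, with 138, 103 and 117 TPM in Ctrl and 186, 201 and 242 TPM in MLN. It had 84.2, 86.5 and 96.8 TPM in shARF and 209, 204 and 188 TPM in Both. All MLN and Both libraries stood above all Ctrl and shARF libraries (log2 fold change 0.81 ± 0.14, 1.76-fold higher, adjusted p = 0.00312 in PC3, and log2 fold change 1.17 ± 0.069, 2.25-fold higher, adjusted p = 3.78e-05 in PC3-shp14ARF cells). Without drug TFE3 was lower in the shRNA cells (log2 fold change -0.41 ± 0.12, adjusted p = 0.0469), a call lost in 9 of 14 alternative settings, among them without Ctrl library 1 or 3 or shARF library 1, 3 or 5, with adjusted p up to 0.136. Under the drug TFE3 did not differ detectably between the cell populations (Both vs MLN -0.058, 95% interval -0.32 to 0.21).

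MITF (chromosome 3, 69739456 to 69968336, plus strand), the melanocyte and osteoclast member of the family, had 14.5, 12.4 and 12.9 TPM in Ctrl and 8.12, 9.28 and 9.98 TPM in MLN. It had 37.2, 36.6 and 39 TPM in shARF and 8.47, 10.5 and 7.92 TPM in Both. The 3 shARF libraries stood far above the other 9, which lay between 7.92 and 14.5 TPM. The shRNA raised MITF without drug (log2 fold change 1.50 ± 0.068, 2.83-fold higher, adjusted p = 0.000144), and MLN4924 lowered it in PC3 (log2 fold change -0.54 ± 0.10, 1.45-fold lower, adjusted p = 0.00489) and further in PC3-shp14ARF cells (log2 fold change -2.07 ± 0.11, 4.19-fold lower, adjusted p = 2.54e-05). With the drug present both populations reached overlapping levels (Both vs MLN -0.032, 95% interval -0.36 to 0.30). The melanocyte markers PMEL, MLANA and TYR, known targets of MITF in pigment cells, summed to 0.677 to 0.847 TPM in shARF and 0.997 to 1.24 TPM in Ctrl. MLANA was listed at 0 in the 12 libraries and TYR reached at most 0.0526 TPM, so the sum was nearly all PMEL. The activity of MITF was not tested. The isoforms of MITF were not separated in the table.

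**Figure D2:**
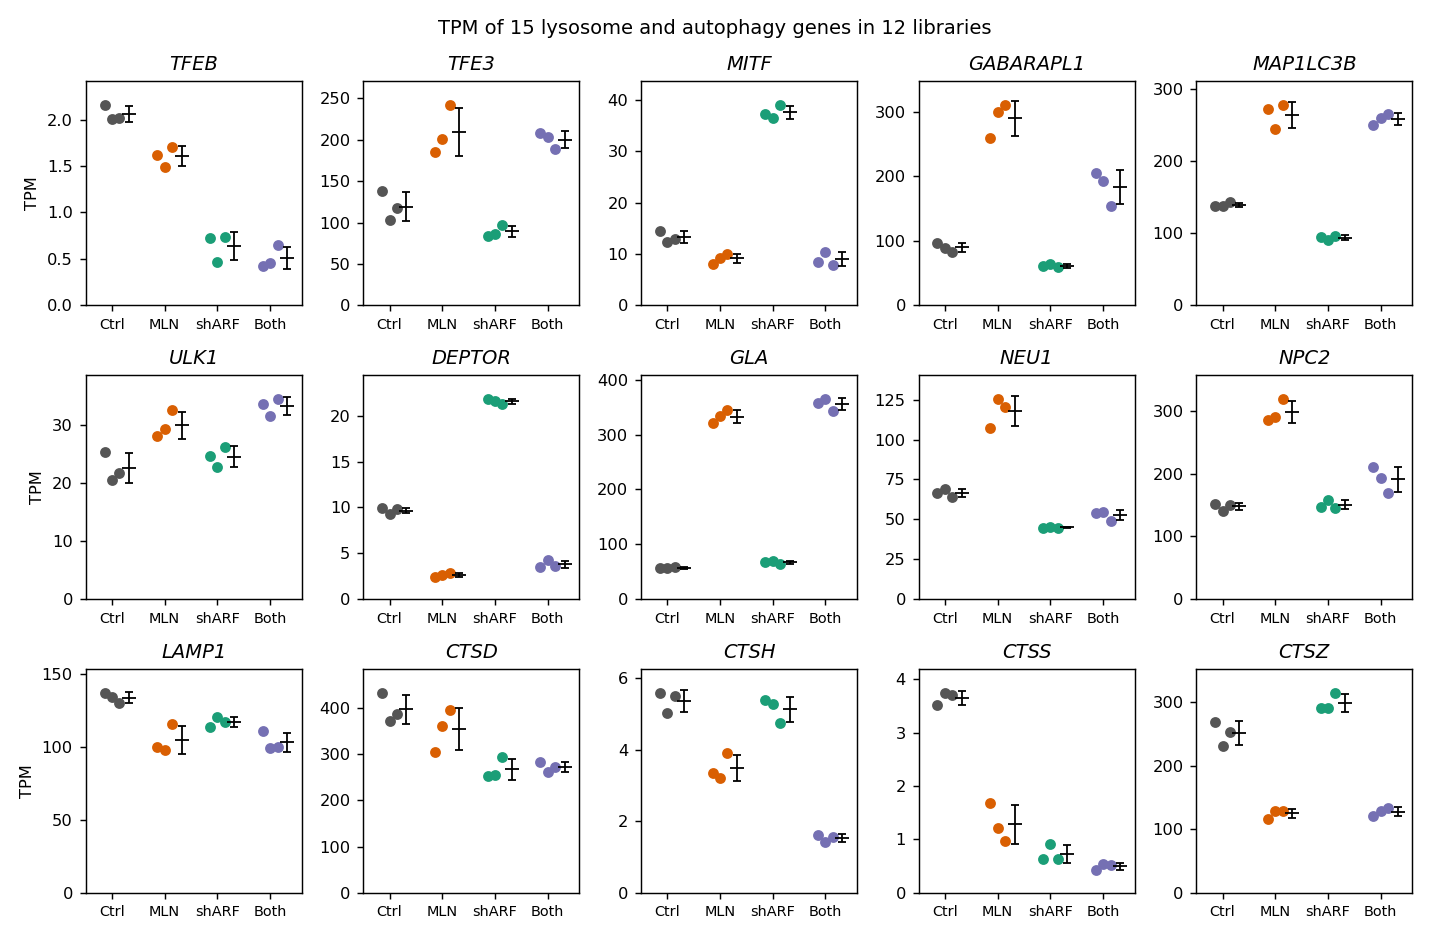
Each panel shows 1 of 15 members chosen by rule, with TPM on the y axis from 0 and the 3 libraries of each group as points beside their mean and SD. GLA, GABARAPL1 and MAP1LC3B are higher in MLN and Both than in Ctrl and shARF, DEPTOR and CTSZ are lower, and MITF stands apart in shARF.

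With MLN4924, 4 of 5 autophagy members rose in each cell population. Of all genes tested, 32.2% rose in PC3 and 28.3% in PC3-shp14ARF cells, shares that are not matched for level. GABARAPL1 (chromosome 12, 10212458 to 10223128, plus strand), which encodes a ubiquitin-like protein of the autophagosome membrane, had 96.1, 89.4 and 83.2 TPM in Ctrl and 259, 299 and 310.1 TPM in MLN. It had 60.4, 64.4 and 58.8 TPM in shARF and 205, 192 and 154 TPM in Both. It rose 3.23-fold in PC3 (log2 fold change 1.69 ± 0.089, adjusted p = 2.63e-05) and 2.98-fold in PC3-shp14ARF cells (log2 fold change 1.57 ± 0.11, adjusted p = 7.87e-05), with no overlap. The shRNA lowered it both without drug (log2 fold change -0.55 ± 0.065, adjusted p = 0.00233) and with it (log2 fold change -0.66 ± 0.13, adjusted p = 0.0124). The second call was lost in 1 of 13 alternative settings, namely without MLN library 2, with adjusted p up to 0.0549. MAP1LC3B (chromosome 16, 87383953 to 87404779, plus strand), the LC3 gene whose lipidated protein marks autophagosomes, had 138, 138 and 143 TPM in Ctrl and 273, 244 and 278 TPM in MLN. It had 94.4, 90.1 and 96.9 TPM in shARF and 250.3, 261 and 266 TPM in Both. MLN4924 raised MAP1LC3B in PC3 (log2 fold change 0.92 ± 0.062, 1.9-fold higher, adjusted p = 6.14e-05) and more in PC3-shp14ARF cells (log2 fold change 1.46 ± 0.043, 2.76-fold higher, adjusted p = 3.85e-06). Its level was lower in shARF than in Ctrl (log2 fold change -0.57 ± 0.035, adjusted p = 0.000328) and overlapped between Both and MLN (-0.033, 95% interval -0.20 to 0.13). MAP1LC3B2 is a near copy of MAP1LC3B, so how reads were split between them is uncertain.

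ULK1 (chromosome 12, 131894622 to 131923150, plus strand), the kinase that starts autophagy, had 25.4, 20.6 and 21.6 TPM in Ctrl and 28, 29.2 and 32.5 TPM in MLN. It had 24.6, 22.8 and 26.2 TPM in shARF and 33.6, 31.5 and 34.4 TPM in Both. The rise was modest in both populations, 1.33-fold in PC3 (log2 fold change 0.41 ± 0.10, adjusted p = 0.012) and 1.35-fold in PC3-shp14ARF cells (log2 fold change 0.44 ± 0.067, adjusted p = 0.00188), and the shRNA gave no call in either state. WIPI1, which binds phosphoinositides on the forming membrane, ranged over 62.6 to 72.8 TPM in Ctrl, 78.1 to 89 TPM in MLN, 34.8 to 37.7 TPM in shARF and 60.1 to 69.2 TPM in Both. It was lower in the shRNA cells by 1.83-fold without drug (log2 fold change -0.87 ± 0.068, adjusted p = 0.000642) and rose 1.81-fold there with MLN4924 (log2 fold change 0.86 ± 0.066, adjusted p = 0.000108), against 1.24-fold in PC3 (log2 fold change 0.31 ± 0.08, adjusted p = 0.0161). The call in PC3 was lost in 4 of 14 alternative settings, among them without Ctrl library 2 or 3 or MLN library 2, with adjusted p up to 0.185. Of the exonic bases of WIPI1, 24.4% are shared with ARSG on the opposite strand, whose mean was 5.47 TPM in Ctrl and 0.749 TPM in MLN. UVRAG, a partner of the Beclin 1 lipid kinase complex, was the exception to the rise: it fell in PC3-shp14ARF cells (log2 fold change -0.40 ± 0.049, adjusted p = 0.00075) and had -0.16 ± 0.071 in PC3 without a call (adjusted p = 0.0951).

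DEPTOR, on chromosome 8, an inhibitor of mTOR and the member with the largest fall in both populations, had 9.89, 9.3 and 9.79 TPM in Ctrl and 2.42, 2.64 and 2.88 TPM in MLN. It had 21.9, 21.6 and 21.2 TPM in shARF and 3.54, 4.23 and 3.56 TPM in Both. The 4 groups did not overlap anywhere. MLN4924 lowered DEPTOR 3.56-fold in PC3 (log2 fold change -1.83 ± 0.095, adjusted p = 2.52e-05) and 5.61-fold in PC3-shp14ARF cells (log2 fold change -2.49 ± 0.084, adjusted p = 6.29e-06). The shRNA raised it 2.22-fold without drug (log2 fold change 1.15 ± 0.038, adjusted p = 6.33e-05) and 1.41-fold with it (log2 fold change 0.50 ± 0.13, adjusted p = 0.0297). The call with the drug was lost in 5 of 13 alternative settings, namely without MLN library 1 or 2 or Both library 2, 3 or 4, with adjusted p up to 0.0865. These are RNA levels, and the protein was not measured here.

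Among the 7 lysosomal membrane proteins MCOLN1 and NPC1 rose in both cell populations with the drug, and LAMP1 and SCARB2 fell. LAMP1 (chromosome 13, 113297239 to 113323672, plus strand), the main glycoprotein of the lysosomal membrane, had 138, 135 and 130.3 TPM in Ctrl and 100.4, 98.3 and 116 TPM in MLN. It had 114, 121 and 117 TPM in shARF and 111, 99.5 and 100.1 TPM in Both. It was lower with MLN4924 in PC3 (log2 fold change -0.36 ± 0.072, 1.28-fold lower, adjusted p = 0.00586). The fall in PC3-shp14ARF cells (log2 fold change -0.18 ± 0.054, adjusted p = 0.0282) was a call lost in 7 of 13 alternative settings, among them without shARF library 1, 3 or 5 or Both library 3 or 4, with adjusted p up to 0.255. LAMP2, which also serves chaperone-mediated autophagy, was lower with the shRNA, at 128 to 139 TPM in Ctrl and 87.2 to 91.5 TPM in shARF (log2 fold change -0.58 ± 0.039, adjusted p = 0.000397). In PC3 its MLN4924 difference was 0.00 on the log2 scale to 2 decimals (95% interval -0.11 to 0.11), and in PC3-shp14ARF cells it rose (log2 fold change 0.31 ± 0.068, adjusted p = 0.00945). SCARB2, an integral protein of the lysosomal membrane, fell in PC3 (log2 fold change -0.60 ± 0.048, adjusted p = 0.000122) and PC3-shp14ARF cells (log2 fold change -0.55 ± 0.065, adjusted p = 0.000642). The TRPML1 calcium channel gene MCOLN1 was at 37.1 to 39.5 TPM in Ctrl and 61.4 to 73.4 TPM in MLN (log2 fold change 0.76 ± 0.079, adjusted p = 0.000344). It was at 28.6 to 36.5 TPM in shARF and 47.5 to 56.1 TPM in Both (log2 fold change 0.69 ± 0.11, adjusted p = 0.00214). The gene NPC1, which exports cholesterol from lysosomes, was at 84.9 to 96.4 TPM in Ctrl and 133 to 155 TPM in MLN (log2 fold change 0.72 ± 0.083, adjusted p = 0.000547), and at 64.7 to 67.6 TPM in shARF and 141 to 164 TPM in Both (log2 fold change 1.21 ± 0.062, adjusted p = 2.38e-05). CD63 fell slightly in PC3 (log2 fold change -0.22 ± 0.059, adjusted p = 0.0203), a call lost in 4 of 14 alternative settings, among them without Ctrl library 2 or 3 or MLN library 2, with adjusted p up to 0.317. CLN3, the Batten disease gene, was called in PC3-shp14ARF cells, where it fell (log2 fold change -0.38 ± 0.083, adjusted p = 0.00849), and had 0.065 ± 0.10 in PC3 (adjusted p = 0.613). Of the exonic bases of CLN3, 25.3% are shared with a protein-coding gene on the same strand.

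The lysosomal peptidases, which are cathepsins and the tripeptidyl peptidase TPP1, mostly fell with MLN4924, and CTSL was the member that rose. Of the 8 peptidases 5 fell and 1 rose in each population, with a median log2 fold change of -0.51 in PC3 and -0.48 in PC3-shp14ARF cells. Of all genes tested, 29.4% fell in PC3 and 32.8% in PC3-shp14ARF cells, with medians of 0.052 and -0.038. These shares are not matched for level. The peptidases that fell were not all the same: CTSS was called in PC3 only and CTSA in PC3-shp14ARF cells only. CTSZ (chromosome 20, 58985686 to 59008238, minus strand), a carboxypeptidase, had 268, 232 and 254 TPM in Ctrl and 116, 129 and 129 TPM in MLN. It had 289.8, 291 and 315 TPM in shARF and 121, 129 and 134 TPM in Both. It fell 2.01-fold in PC3 (log2 fold change -1.01 ± 0.074, adjusted p = 8.73e-05) and 2.34-fold in PC3-shp14ARF cells (log2 fold change -1.22 ± 0.056, adjusted p = 1.63e-05). Of its exonic bases 31.7% overlap NELFCD on the opposite strand, whose mean was 92.3 TPM in Ctrl against 53.6 in MLN, and 120.5 TPM in shARF against 73.3 in Both, lower with the drug as well. Whether the counting used strand is not stated, so reads of the 2 genes cannot be told apart.

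CTSS (chromosome 1, 150730079 to 150765957, minus strand), an elastolytic cathepsin of antigen-presenting cells, was low, with 3.51, 3.75 and 3.7 TPM in Ctrl and 1.68, 1.21 and 0.963 TPM in MLN. It had 0.633, 0.919 and 0.638 TPM in shARF and 0.425, 0.539 and 0.518 TPM in Both. All Ctrl libraries stood above all others. The shRNA lowered it 4.58-fold without drug (log2 fold change -2.19 ± 0.17, adjusted p = 0.000604) and 2.29-fold with it (log2 fold change -1.19 ± 0.24, adjusted p = 0.0142). The second of these calls was lost in 1 of 13 alternative settings, namely without Both library 2, with adjusted p up to 0.0521. MLN4924 lowered CTSS 2.78-fold in PC3 (log2 fold change -1.47 ± 0.21, adjusted p = 0.00126). In PC3-shp14ARF cells the groups did not overlap but the difference was not called (-0.47, adjusted p = 0.102). CTSH (chromosome 15, 78921058 to 78949574, minus strand), an aminopeptidase, had 5.6, 5.03 and 5.49 TPM in Ctrl and 3.36, 3.21 and 3.92 TPM in MLN. It had 5.4, 5.28 and 4.74 TPM in shARF and 1.63, 1.42 and 1.56 TPM in Both. Without drug the 2 cell populations overlapped (-0.064, 95% interval -0.27 to 0.15), and MLN4924 lowered CTSH 1.52-fold in PC3 (log2 fold change -0.61 ± 0.11, adjusted p = 0.00385) and 3.2-fold in PC3-shp14ARF cells (log2 fold change -1.68 ± 0.11, adjusted p = 5.75e-05).

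CTSD (chromosome 11, 1752752 to 1764573, minus strand), the aspartic protease often used as a lysosome marker, had 433, 372 and 386 TPM in Ctrl and 305, 360.1 and 396 TPM in MLN. It had 253, 254 and 293 TPM in shARF and 283, 262 and 271 TPM in Both. No call was made with the drug in PC3 (-0.17, 95% interval -0.45 to 0.10) or in PC3-shp14ARF cells (0.029, -0.15 to 0.20), while the shRNA libraries lay below the PC3 ones without drug (log2 fold change -0.57 ± 0.087, adjusted p = 0.00519) and with it (log2 fold change -0.37 ± 0.10, adjusted p = 0.0394). The call with the drug was lost in 8 of 13 alternative settings, among them without MLN library 2 or 5 or Both library 2, 3 or 4, with adjusted p up to 0.122. CTSD shares 22.9% of its exonic bases with a protein-coding gene on the same strand. A lncRNA on the opposite strand shares 23.4% of them. CTSL, a broad endopeptidase, was at 122 to 135 TPM in Ctrl and 198 to 214 TPM in MLN (log2 fold change 0.68 ± 0.057, adjusted p = 0.000147), and at 143 to 153 TPM in shARF and 295 to 331 TPM in Both (log2 fold change 1.09 ± 0.056, adjusted p = 2.39e-05). CTSB fell in all 4 comparisons, by 1.32-fold with the drug in PC3 (log2 fold change -0.40 ± 0.082, adjusted p = 0.006), 1.41-fold in PC3-shp14ARF cells (log2 fold change -0.50 ± 0.045, adjusted p = 0.000211), and 1.31- and 1.4-fold with the shRNA. The tripeptidyl peptidase gene TPP1 fell with the drug in PC3 (log2 fold change -0.69 ± 0.10, adjusted p = 0.00148) and PC3-shp14ARF cells (log2 fold change -0.34 ± 0.068, adjusted p = 0.00619) and, without drug, with the shRNA (log2 fold change -0.48 ± 0.057, adjusted p = 0.00227). CTSA, whose product protects neuraminidase and beta-galactosidase, was not called in PC3 (0.11) and fell in PC3-shp14ARF cells (log2 fold change -0.54 ± 0.076, adjusted p = 0.00133). It shares 3.8% of its exonic bases with PLTP on the opposite strand, whose mean was 456 TPM in Ctrl against 197 in MLN, and 308 TPM in shARF against 164 in Both.

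The glycosidase gene GLA (chromosome X, 101393273 to 101408012, minus strand), which encodes the alpha-galactosidase A that is deficient in Fabry disease, had the largest rise of any member, with 55.8, 56.6 and 59.2 TPM in Ctrl and 320.4, 334 and 345 TPM in MLN. It had 67.3, 69.8 and 64.2 TPM in shARF and 358, 365 and 343 TPM in Both. The 6 drug-treated libraries lay between 320 and 365 TPM and the 6 others between 55.8 and 69.8 TPM. MLN4924 raised GLA 5.81-fold in PC3 (log2 fold change 2.54 ± 0.048, adjusted p = 1.7e-06) and 5.29-fold in PC3-shp14ARF cells (log2 fold change 2.40 ± 0.046, adjusted p = 1.29e-06). The shRNA added a small rise without drug (log2 fold change 0.23 ± 0.042, adjusted p = 0.00961), and under the drug the populations differed by 0.094 (95% interval -0.045 to 0.23) with no call. GLA shares 557 exonic bases, 9% of its own, with RPL36A on the opposite strand, whose mean was 357 TPM in Ctrl against 190 in MLN, and 419 TPM in shARF against 276 in Both, lower with the drug where GLA was higher.

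NEU1 (chromosome 6, 31857659 to 31862905, minus strand), the lysosomal sialidase, had 66.4, 68.9 and 64.1 TPM in Ctrl and 108, 126 and 120.3 TPM in MLN. It had 44.9, 45.4 and 44.4 TPM in shARF and 54.3, 54.5 and 49.2 TPM in Both. It rose 1.77-fold in PC3 (log2 fold change 0.82 ± 0.069, adjusted p = 0.000147) and 1.17-fold in PC3-shp14ARF cells (log2 fold change 0.23 ± 0.05, adjusted p = 0.00827), and under the drug it was 2.23-fold lower in the shRNA cells (log2 fold change -1.16 ± 0.077, adjusted p = 0.000546). GLB1, the beta-galactosidase gene, and LIPA, the lysosomal acid lipase gene, fell together. GLB1 was at 46.2 to 51.1 TPM in Ctrl and 25.7 to 26.6 TPM in MLN (log2 fold change -0.89 ± 0.051, adjusted p = 3.57e-05), and at 45.5 to 47.4 TPM in shARF and 28.3 to 29.6 TPM in Both (log2 fold change -0.69 ± 0.037, adjusted p = 2.93e-05). LIPA was at 125 to 134 TPM in Ctrl and 66.2 to 69.6 TPM in MLN (log2 fold change -0.94 ± 0.046, adjusted p = 2.16e-05), and at 106 to 114 TPM in shARF and 60.3 to 76 TPM in Both (log2 fold change -0.73 ± 0.091, adjusted p = 0.000813). LIPA shares exonic bases with IFIT3 on the opposite strand, whose mean was 109 TPM in Ctrl against 405 in MLN, and 164 TPM in shARF against 158 in Both. GUSB, the beta-glucuronidase often used as a reference gene, rose 1.18-fold in PC3 (log2 fold change 0.23 ± 0.069, adjusted p = 0.0263). That call was lost in 7 of 14 alternative settings, among them without Ctrl library 1, 2 or 3 or MLN library 2 or 5, with adjusted p up to 0.287. In PC3-shp14ARF cells GUSB had 0.12 ± 0.047 and was not called. The acid ceramidase gene ASAH1 was lower with the shRNA without drug (log2 fold change -0.48 ± 0.045, adjusted p = 0.00113) and with it (log2 fold change -0.70 ± 0.078, adjusted p = 0.00221). Its fall with MLN4924 in PC3-shp14ARF cells (log2 fold change -0.18 ± 0.056, adjusted p = 0.0311) was lost in 6 of 13 alternative settings, among them without shARF library 1 or 3 or Both library 2 or 3, with adjusted p up to 0.328.

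The 3 luminal proteins that are no enzymes went separate ways. NPC2 (chromosome 14, 74476192 to 74494177, minus strand), which hands cholesterol to NPC1, had 152, 141 and 151 TPM in Ctrl and 287, 290.5 and 320.1 TPM in MLN. It had 147, 159 and 145 TPM in shARF and 211, 194 and 170.3 TPM in Both. The MLN libraries stood above all others, and NPC2 rose 2.02-fold in PC3 (log2 fold change 1.01 ± 0.062, adjusted p = 4.49e-05) and 1.27-fold in PC3-shp14ARF cells (log2 fold change 0.34 ± 0.086, adjusted p = 0.0146). The second call was lost in 3 of 13 alternative settings, namely without shARF library 1 or 5 or Both library 3, with adjusted p up to 0.0557. NPC2 overlaps exons of ISCA2 on the opposite strand, whose mean was 27.8 TPM in Ctrl against 55 in MLN, and 32.3 TPM in shARF against 54 in Both. PSAP fell in PC3 (log2 fold change -0.55 ± 0.085, adjusted p = 0.0019) and PC3-shp14ARF cells (log2 fold change -0.70 ± 0.048, adjusted p = 6.72e-05), from 781 to 841 TPM in Ctrl down to 497 to 599 TPM in MLN. GRN was not called in any of the 4 comparisons, with log2 fold changes of 0.081 and -0.10 with the drug and -0.23 and -0.41 with the shRNA.

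The 5 V-ATPase members that were tested differed little, all by less than 2-fold. ATP6V1A, the catalytic subunit, rose 1.22-fold in PC3 (log2 fold change 0.28 ± 0.058, adjusted p = 0.00611) and 1.21-fold in PC3-shp14ARF cells (log2 fold change 0.27 ± 0.059, adjusted p = 0.0082). The accessory subunit gene ATP6AP1 fell 1.35-fold (log2 fold change -0.43 ± 0.08, adjusted p = 0.0042) and 1.6-fold (log2 fold change -0.68 ± 0.056, adjusted p = 0.000141), and ATP6V1H, a regulator of the cytosolic sector, fell 1.22- and 1.13-fold. The first of these calls for ATP6V1H was lost in 3 of 14 alternative settings, among them without MLN library 1 or 5, with adjusted p up to 0.235. The second was lost in 7 of 13 alternative settings, among them without shARF library 1 or 5 or Both library 2, 3 or 4, with adjusted p up to 0.142. ATP6V0D1, of the membrane sector, fell in PC3-shp14ARF cells (log2 fold change -0.39 ± 0.086, adjusted p = 0.00853) and was not called in PC3 (-0.08). ATP6V1B2, the second nucleotide-binding subunit, was not called with the drug (0.12 and 0.088) and was lower with the shRNA, without drug (log2 fold change -0.40 ± 0.031, adjusted p = 0.000593) and with it (log2 fold change -0.43 ± 0.089, adjusted p = 0.0152).

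The effect of the p14ARF shRNA alone ran mostly downward. Of the 38 members tested 19 were lower and 5 higher in shARF than in Ctrl, where 20.4% of all genes tested were lower and 21% higher. At 2-fold, 2 were lower (CTSS and TFEB) and 2 higher (MITF and DEPTOR), against 6.6% and 3.87% of all genes. The median log2 fold change was -0.23 for the members and 0.00 for all genes tested. The other 3 higher members, CTSZ, GLA and CTSL, rose by 1.19-, 1.17- and 1.14-fold. The call of CTSZ was lost in 7 of 14 alternative settings, among them without Ctrl library 2 or 3 or shARF library 1, 3 or 5, with adjusted p up to 0.149. That of CTSL was lost in 9 of 14 alternative settings, among them without Ctrl library 1 or 3 or shARF library 1, 3 or 5, with adjusted p up to 0.149. Among the lower members, the call was lost in 9 of 14 settings for TFE3, 5 for CD63, and 4 each for CTSA and ATP6V1H. With the replicate block 0 members were called lower and 0 higher. By role, 3 of 5 autophagy members, 5 of 8 peptidases, 4 of 7 membrane proteins, 3 of 6 glycosidases and lipases and 2 of 5 V-ATPase subunits were lower, and 0 of the 3 luminal proteins that are no enzymes was called. With 1 library left out, the count of higher members fell to 3 without Ctrl library 3 and without any 1 of the shARF libraries.

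With MLN4924 present, the shRNA cells were again lower in more members than higher. Between Both and MLN 16 members were lower and 2, CTSL and DEPTOR, were higher, beside 20.6% lower and 11.8% higher among all genes tested. At 2-fold 4 were lower (TFEB, CTSS, NEU1 and CTSH) and 0 higher, against 6.84% and 2.18% of all genes. The split depended on the scaling: with median-of-ratios scaling of the TPM, which moved the median of all genes up by 0.091, 12 members were lower and 6 higher, and among the calls over all genes the higher share went from 36.4% to 51.4%. Without MLN library 2 the lower count was 10, and without MLN library 1 or 2 or any 1 of the Both libraries the higher count was 1. The comparison shares its MLN libraries with MLN vs Ctrl and its Both libraries with Both vs shARF.

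**Figure D3:**
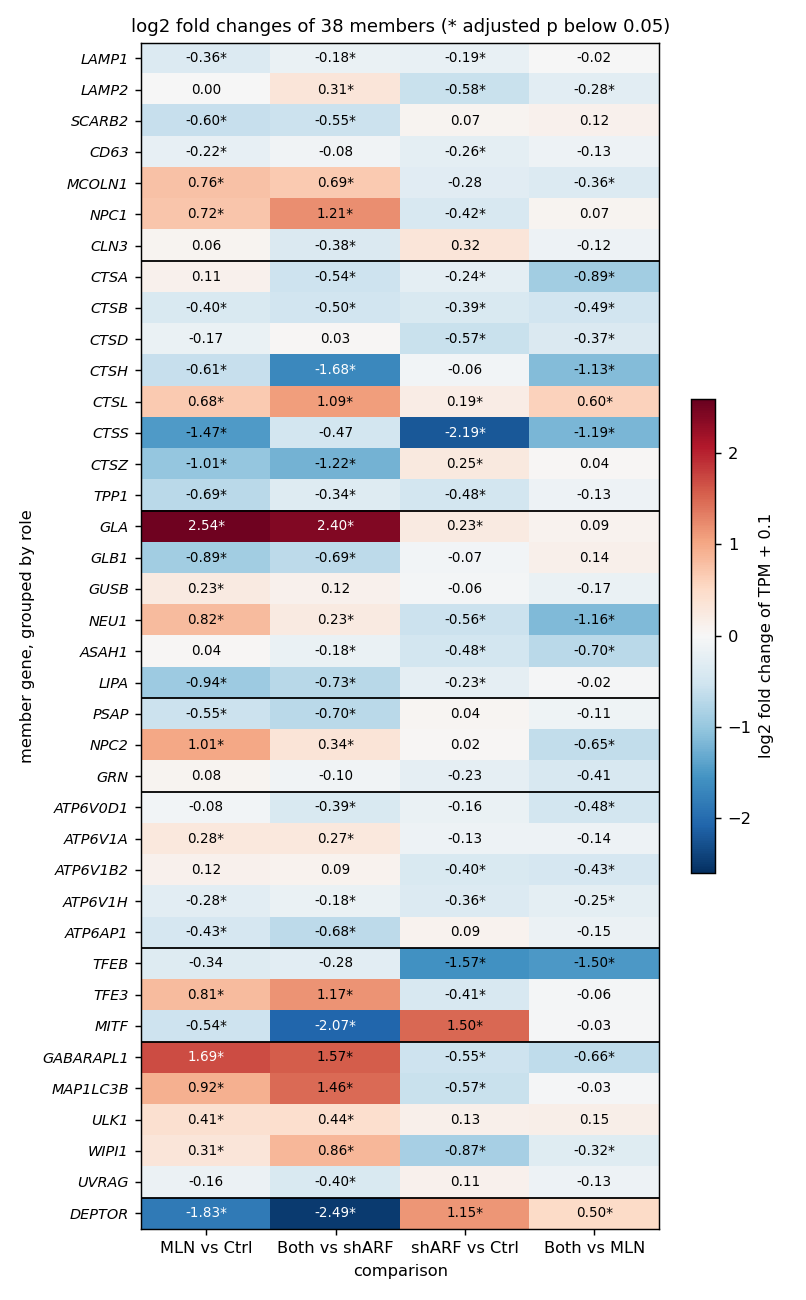
Colour and number give the log2 fold change of TPM + 0.1 of each of the 38 members tested (y axis, grouped by role) in the 4 comparisons (x axis), and a star marks an adjusted p below 0.05. The autophagy block is mostly red in both drug columns and mostly blue in shARF vs Ctrl, and the peptidase block is mostly blue in both drug columns except for CTSL.

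The test of the difference between the 2 drug responses (interaction, over the 12 libraries) called 14 of the 38 members, 7 with a more positive and 7 with a more negative response in PC3-shp14ARF cells, where 11.2% and 17.1% of all genes tested were called. These shares are over genes down to 0.1 TPM and are not matched to the level of the members. With the filter at a mean of 1 TPM, 5566 genes were called. With median-of-ratios scaling the counts were 11 and 6, and the share of more positive calls over all genes went from 39.5% to 53.5%. MITF had the largest difference: its fall was -0.54 in PC3 and -2.07 in PC3-shp14ARF cells on the log2 scale. The difference was -1.53 ± 0.15 (adjusted p = 2.44e-05). CTSH followed with a difference of -1.07 ± 0.16 (adjusted p = 0.000502), NPC2 with -0.67 ± 0.11 (adjusted p = 0.000845) and DEPTOR with -0.65 ± 0.13 (adjusted p = 0.00313). NEU1 and NPC2 rose in both populations, less in PC3-shp14ARF cells, with a difference of -0.59 ± 0.091 (adjusted p = 0.00054) for NEU1. CTSA (-0.65 ± 0.13, adjusted p = 0.00304) and CLN3 (-0.45 ± 0.14, adjusted p = 0.029) also responded more negatively there. The calls of CTSA and DEPTOR were each lost in 1 of 19 alternative settings, the replicate block, with adjusted p of 0.0732 and 0.0631. The call of CLN3 was lost in 8 of 19 alternative settings, among them without Ctrl library 3, MLN library 5, shARF library 5 or Both library 3 or 4, with adjusted p up to 0.286. Without shARF library 5, 4 members in place of 7 had a more positive response.

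In the other direction, MAP1LC3B (0.54 ± 0.082, adjusted p = 0.000488), WIPI1 (0.55 ± 0.11, adjusted p = 0.00289), NPC1 (0.50 ± 0.11, adjusted p = 0.00508) and CTSL (0.41 ± 0.086, adjusted p = 0.00429) rose more in PC3-shp14ARF than in PC3 cells. For MAP1LC3B, NPC1 and WIPI1 the level in shARF was below that in Ctrl, and in Both MAP1LC3B and NPC1 overlapped the levels in MLN. LAMP2 (0.31 ± 0.088, adjusted p = 0.0217) and GLB1 (0.21 ± 0.072, adjusted p = 0.0499) had small differences. The call of LAMP2 was lost in 3 of 19 alternative settings, among them without Ctrl library 2 or shARF library 5, with adjusted p up to 0.0547. The call of GLB1 was lost in 15 of 19 alternative settings, among them without Ctrl library 1 or 3, MLN library 1, 2 or 5, shARF library 1, 3 or 5 or Both library 2, 3 or 4, with adjusted p up to 0.115. CTSS had a less negative response in PC3-shp14ARF cells (1.00 ± 0.31, adjusted p = 0.0299). That call was lost in 11 of 19 alternative settings, among them without Ctrl library 2 or 3, MLN library 2 or 5, shARF library 1 or 5 or Both library 3 or 4, with adjusted p up to 0.27. Its libraries in those cells were at 0.425 to 0.919 TPM, where the pseudocount of 0.1 TPM weighs. GLA, whose response was the largest in both, had a difference of -0.14 (95% interval -0.30 to 0.026) with no call, and for ULK1 it was 0.027 (-0.24 to 0.30).

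**Figure D4:**
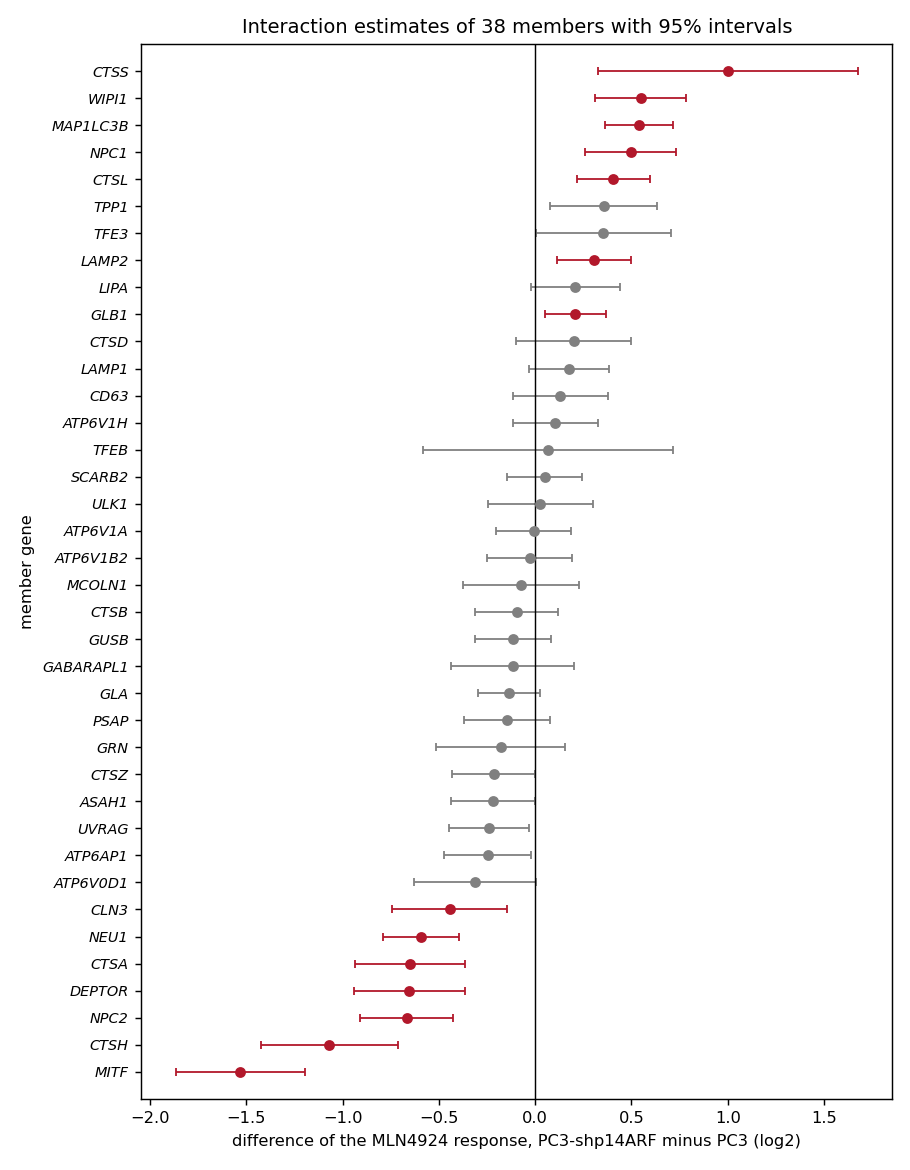
The x axis gives the log2 response to MLN4924 in PC3-shp14ARF minus that in PC3 cells for each of 38 members (y axis, ordered by value), with 95% intervals from the limma fit, and the 14 called members are in red. MITF and CTSH lie below -1, and CTSS has the highest estimate with one of the widest intervals.

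Wider lists of the same pathway are given beside the share of all genes tested, of which 32.2% rose and 29.4% fell in PC3 with MLN4924, and 28.3% rose and 32.8% fell in PC3-shp14ARF cells. Differences between lists were not tested. Of 38 further lysosomal hydrolases tested, 21 fell and 9 rose in PC3 with MLN4924, and 21 fell and 11 rose in PC3-shp14ARF cells, with median log2 fold changes of -0.38 and -0.34. These are 55.3% lower in both, and 23.7% and 28.9% higher. The cathepsin genes CTSK (3.18 ± 0.108 TPM in Ctrl and 0.843 ± 0.428 TPM in MLN) and CTSO (6.41 ± 0.289 TPM and 1.81 ± 0.158 TPM) fell, with log2 fold changes of -1.91 ± 0.37 (adjusted p = 0.00479) and -1.77 ± 0.11 (adjusted p = 4.41e-05). CTSV, a close relative of CTSL, rose from 8.32 ± 0.048 TPM to 31.7 ± 2.91 TPM (log2 fold change 1.91 ± 0.078, adjusted p = 1.2e-05), and in PC3-shp14ARF cells it rose less (log2 fold change 0.75 ± 0.059, adjusted p = 0.000117). The interaction was -1.17 ± 0.11 (adjusted p = 1.08e-05). CTSV and CTSL are similar in sequence, so reads shared between them are uncertain. Of 24 further lysosomal membrane and activator genes 9 rose and 8 fell in PC3, and 10 rose and 7 fell in PC3-shp14ARF cells. That is 37.5% and 33.3% in PC3, near the share of all genes. The calcium channel gene TPCN1 fell 7.52-fold in PC3, from 66.7 ± 8.1 TPM to 8.75 ± 0.519 TPM (log2 fold change -2.91 ± 0.10, adjusted p = 7.42e-06). CD68 rose from 187 ± 37.8 TPM to 545 ± 93.3 TPM (log2 fold change 1.54 ± 0.19, adjusted p = 0.00064), and the transporter gene ABCA2 fell (log2 fold change -1.37 ± 0.13, adjusted p = 0.000252).

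Of 17 V-ATPase subunits outside the members 11 rose and 2 fell in PC3, and 11 rose and 1 fell in PC3-shp14ARF cells. The share that rose was 64.7% in both, against 32.2% and 28.3% of all genes tested. Their median log2 fold changes were 0.53 and 0.40, where those of the 5 members tested were -0.080 and -0.18. ATP6V0D2, the osteoclast form of the d subunit, rose 10.3-fold, from 0.997 ± 0.123 TPM to 11.2 ± 1.16 TPM (log2 fold change 3.36 ± 0.14, adjusted p = 1.2e-05), and ATP6V1G2 from 2.07 ± 0.425 TPM to 5.79 ± 0.644 TPM (log2 fold change 1.45 ± 0.17, adjusted p = 0.000616). ATP6V0E2 fell from 84.4 ± 6.4 TPM to 36.2 ± 4.63 TPM (log2 fold change -1.22 ± 0.11, adjusted p = 0.00018). Of 16 sorting genes 4 rose and 7 fell in either population, 25% and 43.8% of the list. AP3B1, of the adaptor that sends cargo to lysosomes, fell 2.99-fold (log2 fold change -1.58 ± 0.059, adjusted p = 9.41e-06) and the sorting receptor gene SORT1 1.88-fold (log2 fold change -0.91 ± 0.11, adjusted p = 0.000748), while the retromer gene VPS29 rose 1.93-fold (log2 fold change 0.95 ± 0.10, adjusted p = 0.000354).

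Of 45 further autophagy genes 23 rose and 12 fell in PC3, and 25 rose and 9 fell in PC3-shp14ARF cells, with medians of 0.21 and 0.40. The share that rose was 51.1% and 55.6%, against 32.2% and 28.3% of all genes tested. Among them MAP1LC3A, another LC3 gene, rose 3.96-fold, from 8.09 ± 1.05 TPM to 32.2 ± 2.88 TPM (log2 fold change 1.99 ± 0.12, adjusted p = 3.96e-05), and the lipid transfer gene ATG2A rose 3.16-fold (log2 fold change 1.66 ± 0.12, adjusted p = 7.17e-05). ATG7, the E1-like enzyme that activates LC3 proteins, fell 6.43-fold in PC3, from 38.1 ± 2.16 TPM to 5.86 ± 0.71 TPM (log2 fold change -2.69 ± 0.10, adjusted p = 9.98e-06), and 2.34-fold in PC3-shp14ARF cells, with an interaction of 1.46 ± 0.13 (adjusted p = 9.86e-06). SQSTM1, the p62 receptor of selective autophagy, is named after its values were seen because its direction differed. It fell in PC3 (log2 fold change -0.41 ± 0.10, adjusted p = 0.0107) and rose in PC3-shp14ARF cells (log2 fold change 0.72 ± 0.064, adjusted p = 0.000191). Without drug its level was lower in the PC3-shp14ARF cells, at 209 ± 16.5 TPM against 445 ± 33.7 TPM. Its interaction was 1.13 ± 0.12 (adjusted p = 3.53e-05).

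Of 35 genes of mTORC1 and its nutrient inputs 12 rose and 11 fell in PC3, and 8 rose and 16 fell in PC3-shp14ARF cells. In PC3 these are 34.3% and 31.4%, near the 32.2% and 29.4% of all genes tested. SESN2, a leucine-sensing inhibitor of mTORC1, rose 6.46-fold, from 22.3 ± 2.76 TPM to 145 ± 26.6 TPM (log2 fold change 2.69 ± 0.15, adjusted p = 3.39e-05), and 7.96-fold in PC3-shp14ARF cells (log2 fold change 2.99 ± 0.049, adjusted p = 8.8e-07). RPTOR, the scaffold that defines mTORC1, fell 3.47-fold, from 34.7 ± 2.9 TPM to 9.94 ± 1.25 TPM (log2 fold change -1.80 ± 0.11, adjusted p = 4.48e-05), and 3.21-fold in PC3-shp14ARF cells (log2 fold change -1.68 ± 0.055, adjusted p = 5.28e-06). MAPKAP1, of the sister complex mTORC2, fell 2.56-fold (log2 fold change -1.36 ± 0.048, adjusted p = 8.05e-06).

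**Figure D5:**
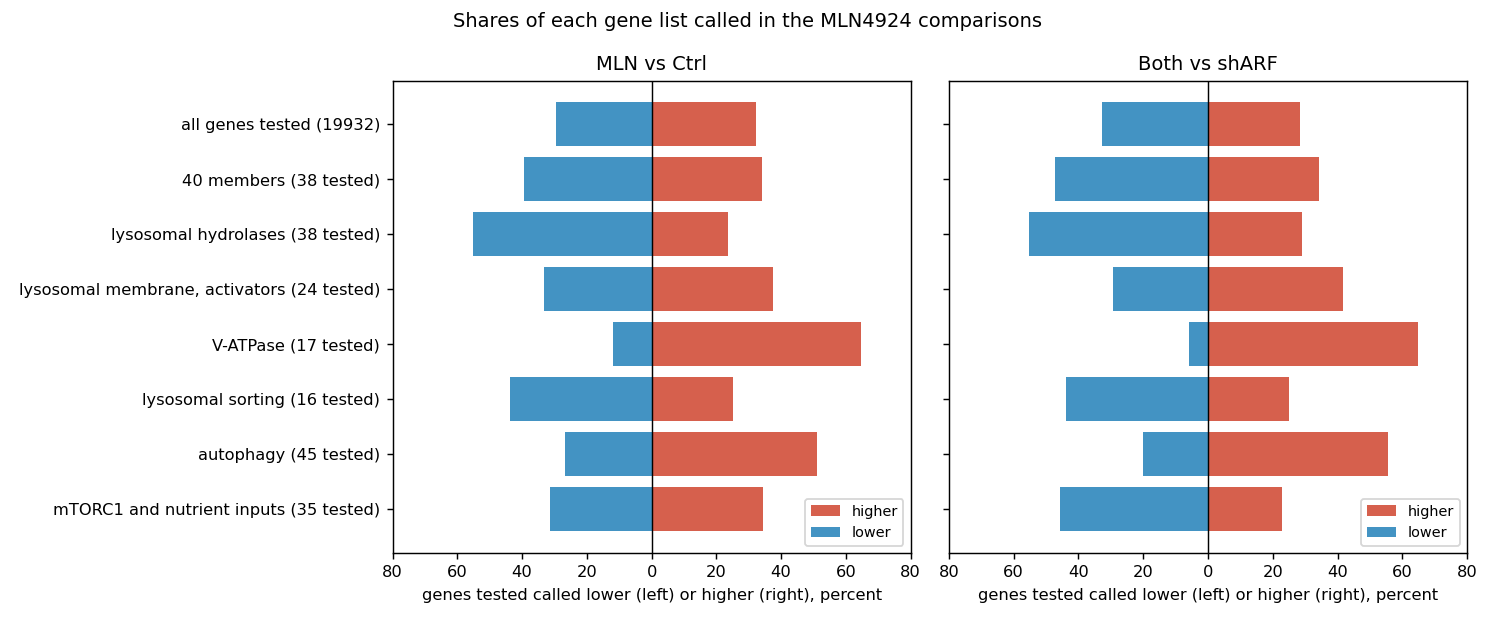
Bars give, for the 40 members, 6 wider lists and all genes tested, the percent of tested genes called lower (left, blue) and higher (right, red) with MLN4924 in PC3 (left panel) and PC3-shp14ARF cells (right panel). The V-ATPase and autophagy lists have longer bars to the right than all genes, and the hydrolases longer bars to the left, in both panels.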

How the data were processed

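RNA-seq libraries of PC3 and PC3-shp14ARF cells with DMSO or MLN4924 were analysed from 1 table of TPM values deposited by the authors. According to the study's methods, the authors trimmed reads, mapped them to hg38 and quantified them on an Ensembl annotation in CLC Genomics Workbench. Read counts, sequencing depth and the use of strand were not given in the sources used here, so the precision of low values is unknown. Columns were assigned to groups by their names and the sample titles. The labels list 1 sample per group, and the 3 columns of a group were taken as its libraries.

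From the TPM values, log2(TPM + 0.1) was fitted in R 4.3.3 with limma 3.58.1 (lmFit, then eBayes with trend) for the 19932 genes whose average over 12 libraries reached 0.1 TPM, with p adjusted by Benjamini-Hochberg over all genes tested. Each pairwise comparison used its 6 libraries, and the interaction all 12. The fits were tested on simulated data. Alternatives were pseudocounts of 1 and 0.01, a filter at 1 TPM or none, median-of-ratios scaling, eBayes without trend, 12 libraries in one fit, a replicate block, a 2-fold cutoff and each library left out.

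The members, their roles, the wider lists and the motifs were chosen with earlier results of these data known. Values in every library are given for the members called without overlap with the largest changes (6 in each drug comparison and 4 in each other) and for LAMP1, CTSD, TFEB, TFE3, MITF, MAP1LC3B, ULK1 and DEPTOR. From each wider list the 3 called genes with the largest change in MLN vs Ctrl at a mean of at least 1 TPM are named. Positions and exon overlaps come from the GENCODE annotation of GRCh38, another release than the authors', and promoter windows from RefSeq. All 44 promoter windows of members were identical to the genome in the direction of the gene.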

Additional observations from a re-analysis of the deposited data

Results flagged for a closer look

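The response to MLN4924 differed between PC3-shp14ARF and PC3 cells, by the test of the difference itself over the 12 libraries (limma, adjusted over all genes tested), in 14 members. A more negative response in PC3-shp14ARF cells was found for MITF (difference of log2 fold changes -1.53), CTSH (-1.07), NPC2 (-0.67), DEPTOR (-0.65), CTSA (-0.65), NEU1 (-0.59) and CLN3 (-0.45). A more positive response was found for GLB1 (0.21), LAMP2 (0.31), CTSL (0.41), NPC1 (0.50), MAP1LC3B (0.54), WIPI1 (0.55) and CTSS (1.00). Of these members, 0 were called in opposite directions in the 2 populations. Without drug, the shARF libraries stood above the Ctrl libraries without overlap for MITF, DEPTOR, CTSL and CLN3. They stood below them for NEU1, CTSA, LAMP2, CTSS, MAP1LC3B, NPC1 and WIPI1, while CTSH, NPC2 and GLB1 overlapped. Of all genes tested, 27.3% were higher and 25.8% lower without overlap in the same comparison.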

How the results depend on the processing

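No call of a member changed direction under any alternative. Of the member values under an alternative, 2536 kept their side of the threshold, 192 lost a call and 46 gained one. Without the 2-fold cutoff, 12 of 28 member calls in MLN vs Ctrl and 27 of 31 in Both vs shARF held in every setting. The same held for 0 of 24 in shARF vs Ctrl, 10 of 18 in Both vs MLN and 8 of 14 in the interaction. These counts cannot be compared across comparisons, because the settings differed. The replicate block was among the 14 settings of MLN vs Ctrl and of shARF vs Ctrl and the 19 of the interaction. It was not among the 13 of Both vs shARF and of Both vs MLN. The block alone left 7 higher and 5 lower members in MLN vs Ctrl and 0 in shARF vs Ctrl. Not every lost call is marked beside its gene above. Requiring a 2-fold change left 3 higher and 3 lower members in MLN vs Ctrl (5574 genes in all), 6 and 4 in Both vs shARF (5272), 2 and 2 in shARF vs Ctrl (2086), 0 and 4 in Both vs MLN (1798) and 1 and 2 in the interaction (1688), by construction. Median-of-ratios scaling gave 6 higher members in Both vs MLN and 11 in the interaction, and no filter gave 3 higher members in shARF vs Ctrl. Leaving out 1 library gave 3 to 6 higher members in shARF vs Ctrl, 1 to 2 higher and 10 to 15 lower members in Both vs MLN, with 4005 to 5731 genes in all (4005 without MLN library 2 and 4199 without Both library 2, against 6464), and 4 to 8 higher members in the interaction, with 4 without shARF library 5. The cause was not tested.

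What the library numbers stand for is not stated in the labels. Deviations of same-numbered libraries from their group means correlated at -0.147 to 0.063. Such values cannot show whether the libraries were paired, since a weak shared effect could give them too. A block on the number left 7 higher and 5 lower members in MLN vs Ctrl (5708 genes), 4 and 4 in the interaction (3105 genes), and 0 and 0 in shARF vs Ctrl (0 genes by limma, with 7757 genes and 3 higher and 17 lower members at an unadjusted p below 0.05). The blocked fits have few residual degrees of freedom. No block was fitted for Both vs shARF or Both vs MLN, which share 1 number each. Depth is unknown in TPM, so changes of CTSS, TFEB and CTSH, the lowest members tested, rest on an unknown number of reads.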

Other observations

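The wider lists were also compared between the shRNA and PC3 cells, and differences between lists were not tested. Between shARF and Ctrl, where 20.4% of all genes tested were lower and 21% higher, 15 of 38 hydrolases were lower and 4 higher, 10 of 24 membrane and activator genes were lower and 4 higher, and 5 of 17 V-ATPase subunits were lower and 2 higher. Between Both and MLN, where 20.6% of all genes tested were lower and 11.8% higher, the same lists had 13, 11 and 10 lower genes and 0, 0 and 1 higher. That background depends on the scaling, since with median-of-ratios scaling the higher share of all calls went from 36.4% to 51.4%. Of 16 sorting genes 4 were higher and 2 lower without drug, and 6 were higher and 3 lower with it. TPCN1, an endolysosomal calcium channel gene, was 66.7 ± 8.1 TPM in Ctrl and 23.7 ± 1.52 TPM in shARF (log2 fold change -1.49 ± 0.10, adjusted p = 0.000414). Of the 45 autophagy genes 10 were higher and 15 lower in shARF, and MAP1LC3A was lower under the drug, with 32.2 ± 2.88 TPM in MLN and 11.8 ± 1.98 TPM in Both (log2 fold change -1.46 ± 0.14, adjusted p = 0.00145, limma). All these values come from libraries that the comparisons above also use.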
